A study of Mus musculus with 13 samples.

Results

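The end state of murine leukemia stem cells after 72 h of exposure to A-485 was compared with the same kind of cells at 0 h, gene by gene, over every gene in the count tables. Of 24328 genes, 11119 had enough reads to be tested, and 4 of the 13 libraries of the study carry the comparison: 2 at 72 h and 2 at 0 h. The genes were not chosen by any measured value other than that minimum of reads. The cells are labelled as leukemia stem cells from bone marrow and were grown in RPMI medium with 20% fetal bovine serum and 20% WEHI-conditioned medium. All of them carry the MLL-AF10 fusion, so the 0 h group is itself leukemic. The labels call the 0 h libraries untreated. No vehicle-treated or time-matched untreated library was analysed here, so 72 h of drug and 72 h of culture cannot be told apart, and no dose is stated in the labels. The other libraries are 2 each at 8, 24 and 48 h of A-485, and 1 each of wild-type granulocyte-monocyte progenitors (GMP), of leukemia stem cells (LSC) and of mature AML cells (mAML). The labels do not say whether the 2 libraries of a time came from separate cultures, so p-values measure the spread between these libraries, which may be technical.

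A-485 is a small molecule that competes with acetyl-CoA for the catalytic site of p300 and CBP, the paralogous lysine acetyltransferases encoded by Ep300 and Crebbp. These enzymes acetylate histone H3 at lysine 27, the mark of active enhancers, and serve as coactivators for many transcription factors of blood progenitors. MLL fusion proteins maintain a progenitor programme that includes the Hoxa genes and Meis1. Granulocyte-monocyte leukemias of this type usually keep some myeloid traits, such as the enzymes of the primary granules.

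Promoters of 4 genes are shown first, from lists in which the values below turn on many genes at once: cell division, growth and the interferon response. In mammals, cell cycle genes are repressed in resting cells through the CHR element TTTGAA, often spaced from CCAAT boxes. MYC binds the E-box CACGTG, and interferon-responsive genes carry the interferon-stimulated response element, searched here as a pair of TTTC 2 bases apart. The sequences below run 5′ to 3′ on the gene's strand, from 250 bases before to 50 bases after the RefSeq transcription start (build GRCm38.p6), and capitals mark the matches on either strand. The genes are Ccnb2, cyclin B2 (chr9:70421505-70421804, minus strand), Ube2c, the ubiquitin-conjugating enzyme that works with the anaphase-promoting complex (chr2:164769679-164769978, plus strand), Cdk4, the G1 kinase (chr10:127063285-127063584, plus strand), and Ifit1, an antiviral RNA-binding protein (chr19:34640639-34640938, plus strand).
Ccnb2: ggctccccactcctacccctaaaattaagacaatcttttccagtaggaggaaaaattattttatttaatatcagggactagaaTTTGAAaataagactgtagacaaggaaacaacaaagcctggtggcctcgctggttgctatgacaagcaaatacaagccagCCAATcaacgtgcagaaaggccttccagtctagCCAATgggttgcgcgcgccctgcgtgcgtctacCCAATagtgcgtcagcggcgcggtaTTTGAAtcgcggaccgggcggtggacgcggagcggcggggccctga
Ube2c: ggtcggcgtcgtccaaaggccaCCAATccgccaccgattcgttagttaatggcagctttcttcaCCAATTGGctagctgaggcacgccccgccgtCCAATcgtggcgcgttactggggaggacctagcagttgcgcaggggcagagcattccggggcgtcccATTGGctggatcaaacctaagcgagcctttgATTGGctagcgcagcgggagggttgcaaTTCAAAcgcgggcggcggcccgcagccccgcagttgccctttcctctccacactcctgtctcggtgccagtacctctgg
Cdk4: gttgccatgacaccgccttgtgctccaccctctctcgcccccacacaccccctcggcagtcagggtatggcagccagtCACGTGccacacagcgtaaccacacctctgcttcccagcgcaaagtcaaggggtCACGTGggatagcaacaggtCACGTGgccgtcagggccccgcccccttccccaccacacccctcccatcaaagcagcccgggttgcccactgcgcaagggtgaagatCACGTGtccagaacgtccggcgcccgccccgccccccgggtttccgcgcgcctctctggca
Ifit1: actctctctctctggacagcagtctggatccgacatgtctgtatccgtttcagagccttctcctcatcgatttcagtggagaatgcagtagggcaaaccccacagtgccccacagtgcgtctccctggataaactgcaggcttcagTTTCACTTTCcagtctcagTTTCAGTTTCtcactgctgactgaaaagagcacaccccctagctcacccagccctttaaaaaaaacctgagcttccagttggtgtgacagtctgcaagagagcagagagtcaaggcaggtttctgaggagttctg

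Promoters were matched for 8556 of the 11119 genes tested. TTTGAA stood in 27 of the 37 matched promoters of the mitosis list (73%) and in 12% of all matched promoters, and CCAAT in 28 of 37 (75.7%) and in 39.5% of all. CACGTG stood in 10 of 35 promoters of the MYC target and nucleolar list (28.6%) and in 10.5% of all. The interferon element stood in 21 of 35 promoters of the interferon list (60%) and in 3.09% of all. TTTCCCGC, a match to the E2F site, stood in 8 of 37 promoters of the DNA replication list (21.6%) and in 2.2% of all. TCACGTGA, the site of lysosome genes, which contains CACGTG, stood in 5 of 35 promoters of the lysosome list (14.3%) and in 2.03% of all, and TCACNCCAC, a form of the sterol element, in 0 of 17 promoters of the cholesterol list and in 0.993% of all. Of the 1024 genes with TTTGAA, 36.8% were called lower at 72 h, against 28.2% of the 7532 without it. Of the 174 with TCACGTGA, 36.8% were called higher, against 26.3% of the 8382 without it, and of the 264 with the interferon element, 24.2% were called higher, against 26.6% of the 8292 without it. The share called lower was 31.4% with CACGTG and 29% without, and 38.3% with TTTCCCGC and 29% without. It was 31.6% with CCAAT and 27.7% without, and 31.8% with TCACNCCAC and 29.2% without. Of the 85 genes with TCACNCCAC 31.8% were also called higher, against 26.4% of the 8471 without it. A match describes the window and is not a site of binding, and a window without one says only that these letters are not in it.

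Expected counts in the 10 time-course libraries summed to between 6467762 and 9763278. Levels are given below as CPM (counts relative to the TMM-scaled library total), replicate 1 before replicate 2. Changes are log2 values at 72 h minus 0 h with their approximate standard error, and a gene is called where its adjusted p in edgeR's quasi-likelihood test is under 0.05. Some libraries stood apart from their replicates. Replicate 1 of 72 h, together with replicate 2 of 8 h and of 24 h, was high in Wnt2, Susd5, Plcl1 and Abcg2. These genes were chosen after their values were seen. Wnt2, a secreted ligand, was at 20.9 and 1.08 CPM in the 72 h libraries and at 3.58 and 2.65 CPM at 0 h. Replicate 2 of 72 h was the higher in part of the interferon genes, with Oasl2, an antiviral gene, at 1.5 and 11.5 CPM and at 0 and 0.139 CPM at 0 h. Its call (adjusted p 0.0338) was lost without replicate 1 of 0 h (5.44, adjusted p 0.153), without replicate 2 of 0 h (8.75, adjusted p 0.107) and without replicate 2 of 72 h (4.22, adjusted p 0.206). The difference in Wnt2 was not called (adjusted p 0.487). Leaving out either 72 h replicate gave 2235 and 2288 genes called higher and 2670 and 2656 called lower.

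With all 4 libraries, 2876 of 11119 genes were called higher at 72 h (25.9%) and 3272 were called lower (29.4%). In bulk RNA, fewer cells of a type and less RNA per cell cannot be told apart. The larger changes were mostly downward. Changes of at least 4-fold were called upward in 244 genes and downward in 974, and changes of at least 16-fold upward in 48 and downward in 425. A set of 97 genes went from at least 10 CPM in both 0 h libraries to under 1 CPM in both 72 h libraries, and 2 genes did the reverse, the transporter Slc22a18 and the pseudogene Pisd-ps1, which were named after their values were seen.

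How many genes counted as higher depended on the scaling. TPM values divide reads by transcript length and give the relative number of molecules, and TMM scaling holds the bulk of genes level. On log2(TPM + 1), limma called 6104 genes higher (54.9%) and 1638 lower (14.7%). The median change of all genes tested was -0.02 by TMM, 0.35 by library size alone and 0.62 by TPM. Of the genes called, 46.8% were higher by TMM, 67.4% by library size alone and 78.8% by TPM. At 0 h, 170 and 163 genes held 50% of the TPM, and at 72 h it took 467 and 405, so the most abundant transcripts took a smaller share. Each function below is therefore described by both scalings and is to be read against these medians. A positive TPM value under 0.62 is still below the median of all genes. Shares called by TMM are likewise to be read against the 25.9% higher and 29.4% lower of all genes. A list near those shares is not set apart from all genes by its calls.

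**Figure D1:**
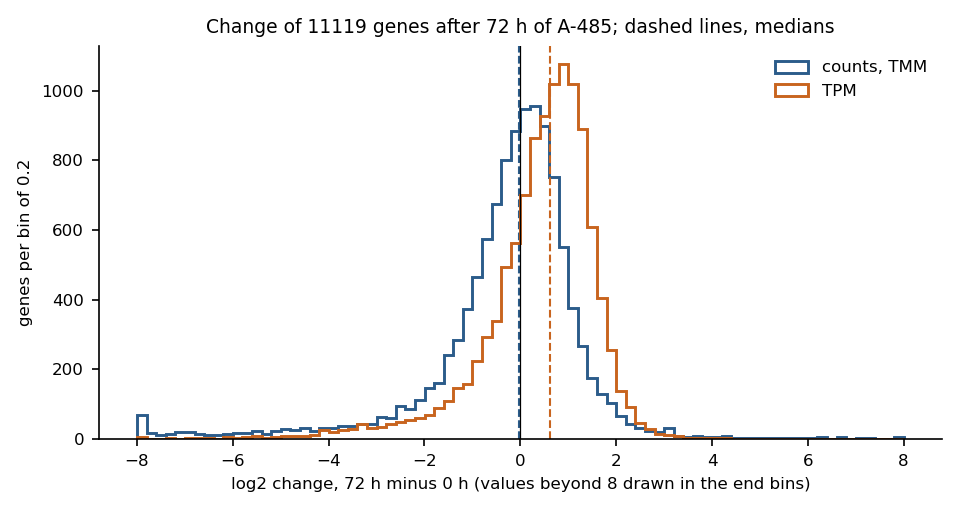
Number of genes by log2 change at 72 h minus 0 h, in bins of 0.2, for TMM-scaled counts (blue) and for log2(TPM + 1) (orange), with dashed lines at the medians of -0.02 and 0.62. The 2 curves have a similar width and a longer tail to the left, and the TPM curve sits to the right.

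Calls also followed transcript length. In the shortest of 4 equal bins of genes (median effective length 972 nucleotides), 11.5% were called higher and 41% lower, and in the longest bin (median 5191 nucleotides) 40.1% were higher and 19.6% lower. The mean effective length behind a read was 2861 and 2848 nucleotides at 0 h and 3530 and 3423 nucleotides at 72 h. The nuclear RNAs Malat1 (321 and 328 CPM at 0 h and 2666 and 3063 CPM at 72 h) and Neat1 (115 and 125 CPM at 0 h and 839 and 2175 CPM at 72 h) moved with it, with changes of 3.14 ± 0.21 and 3.65 ± 0.49 (adjusted p 1.5e-05 and 0.000356). With a smooth trend on length removed from every library, 2848 genes were called higher and 3145 lower, and the median change of 4 of 65 lists turned its sign: SWI/SNF, RNA polymerase II, respiratory chain and solute carriers. The part of transcript length in the calls of single genes was not tested beyond that trend.

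**Figure D2:**
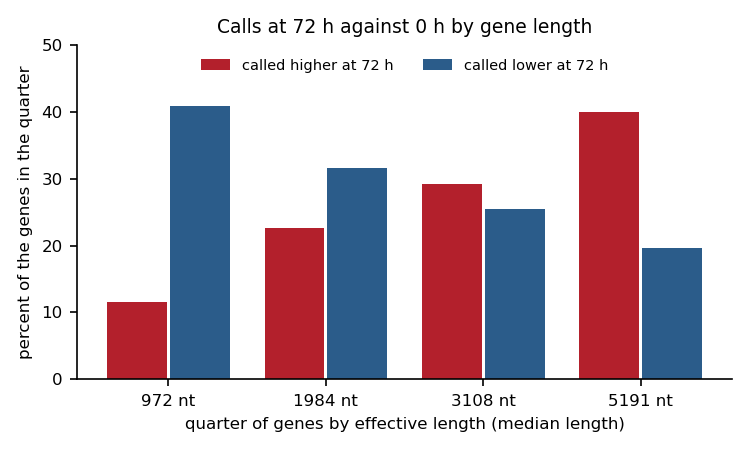
Percent of genes called higher (red) and lower (blue) at 72 h in each of 4 equal bins of genes by effective length, with each bin's median in nucleotides on the axis. The share called higher goes from 11.5% in the shortest bin to 40.1% in the longest.

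The targets of the drug were themselves higher at 72 h. Ep300 was at 148 and 162 CPM at 0 h and 539 and 475 CPM at 72 h, a change of 1.71 ± 0.14 (adjusted p 3.06e-05), and Crebbp at 47.3 and 44.2 CPM at 0 h and 177 and 162 CPM at 72 h, a change of 1.89 ± 0.13 (adjusted p 1.58e-05). In both genes each 72 h library was above each 0 h library by TMM and TPM. Of 16 lysine acetyltransferase genes tested, 11 were called higher and 3 lower, with a median of 0.87 by TMM and 1.52 by TPM. Kat6b, the catalytic subunit of the MORF complex, rose by 1.99 ± 0.14 and the coactivator Ncoa3 by 1.57 ± 0.14. Hat1, which acetylates new histone H4 before its deposition, fell from 95.3 and 114 to 55 and 43.2 CPM. These messages encode the drug's targets, and their levels do not measure acetyltransferase activity.

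The wider transcription machinery leaned the same way by TMM and TPM, with exceptions. Several of these lists hold long messages, and of the longest bin of all genes 40.1% were called higher and 19.6% lower. Among BET readers and elongation factors, 13 of 22 were called higher and 1 lower (medians 0.39 and 1.12 by TMM and TPM). With length removed, 9 were higher and 1 lower (median 0.22). Hexim1, the inhibitor of the elongation kinase P-TEFb, was at 97.6 and 113 CPM at 0 h and 283 and 280 CPM at 72 h, a change of 1.42 ± 0.12. Brd2, a bromodomain reader of acetylated histones, rose by 0.68 ± 0.09. Mediator held 11 higher and 3 lower of 33, led by Med13 (1.43 ± 0.17), a part of the kinase module. With length removed, 13 Mediator genes were higher and 2 lower (median 0.22). Of the remodelers, 9 of 26 rose and 2 fell, with a median of 0.20 by TMM, 0.89 by TPM and -0.04 with length removed. RNA polymerase II subunits parted: its largest subunit Polr2a, with a long message, rose by 0.84 ± 0.13 and 5 of 12 fell, and the median of -0.31 by TMM turned to 0.06 by library size, 0.39 by TPM and 0.15 with length removed. Deacetylases and sirtuins had medians of 0.13 by TMM and 0.79 by TPM. Of 18 genes, 3 fell and 5 rose, a share close to the 25.9% of all genes called higher. Among these, the mitochondrial deacetylase Sirt3 fell from 40.4 and 36.8 to 10.6 and 10.8 CPM, and Hdac1 was at 226 and 204 CPM at 0 h and 251 and 228 CPM at 72 h and was not called (adjusted p 0.219), but it was called higher by library size alone, by TPM and with length removed.

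Among histone methylation genes, 2 paralogs moved in opposite directions. Ezh1 and Ezh2 are alternative methyltransferases of Polycomb complex 2, and Ezh2 is the form typical of dividing cells. Ezh1 went from 50 and 63.1 to 196 and 186 CPM (1.76 ± 0.17, adjusted p 6.8e-05), and Ezh2 from 77.6 and 84.5 to 17.4 and 21.4 CPM (-2.06 ± 0.15, adjusted p 2.04e-05). Both directions held by TPM (2.41 and -1.30). At 0 h Ezh2 was the higher of the pair per length (36.4 and 39.5 TPM at 0 h and 13.7 and 16.1 TPM at 72 h, with Ezh1 at 14.2 and 17.8 TPM at 0 h and 93.3 and 84.8 TPM at 72 h), and at 72 h Ezh1 was. Outside the lists, the Polycomb genes Cbx7 (13.3 and 14.1 CPM at 0 h and 132 and 120 CPM at 72 h) and Phf1 (12.6 and 12.7 CPM at 0 h and 146 and 188 CPM at 72 h) were among the 12 largest rises, with changes of 3.20 ± 0.28 and 3.73 ± 0.25. Over the whole list of histone methylation writers and erasers, 19 of 37 rose and 7 fell, with a median of 0.45 by TMM and 1.16 by TPM. With length removed, 16 rose and 10 fell (median 0.205). Setd1b, an H3K4 methyltransferase with a long message, rose by 1.72 ± 0.17, and Suv39h2, an H3K9 methyltransferase, fell by 2.62 ± 0.42 from 21.6 and 17 CPM.

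Zinc finger genes of the Zfp series formed the largest list: 157 of 290 were called higher and 9 lower, against 25.9% and 29.4% of all genes. Their median was 0.66 by TMM, 1.19 by TPM and 0.59 with length removed. Zfp809, which silences retroviral DNA, went from 12 and 11.1 to 40.7 and 43.2 CPM (1.86 ± 0.18), and Zfp619 rose the most of those with at least 10 CPM (2.37 ± 0.32). Zfp703, a corepressor, was an exception in direction, at 83.8 and 80.5 CPM at 0 h and 23.2 and 40.7 CPM at 72 h (-1.36 ± 0.37), a call lost without replicate 1 of 0 h (-1.30, adjusted p 0.0601), without replicate 2 of 0 h (-1.35, adjusted p 0.0508) and without replicate 1 of 72 h (-1.01, adjusted p 0.0878) and by TPM (adjusted p 0.122).

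Splicing factors went the other way by TMM: 5 of 36 rose and 15 fell, a median of -0.09 that turned to 0.27 by library size and 0.60 by TPM. Hnrnpa1, a repressor of exon inclusion, fell from 469 and 492 to 115 and 114 CPM (-2.07 ± 0.13), and the kinase Clk1, which phosphorylates SR proteins, rose to 252 and 387 CPM (1.92 ± 0.27).

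The leukemia programme split. Hoxa9, the homeobox factor at the center of MLL leukemia, was at 125 and 155 CPM at 0 h and 222 and 238 CPM at 72 h, a change of 0.72 ± 0.22 (adjusted p 0.0242). Its cofactor Meis1 was at 35.3 and 56 CPM at 0 h and 114 and 81.7 CPM at 72 h, a change of 1.10 ± 0.34 (adjusted p 0.0213). In neither gene did the 2 groups overlap, and neither was lower at 72 h by any scaling, but the call of Hoxa9 was lost without replicate 1 of 0 h (0.61, adjusted p 0.126), without replicate 1 of 72 h (0.77, adjusted p 0.0604) and without replicate 2 of 72 h (0.67, adjusted p 0.0922), and that of Meis1 without replicate 1 of 0 h (0.84, adjusted p 0.126) and without replicate 1 of 72 h (0.84, adjusted p 0.12). Hoxa3 rose by 1.73 ± 0.41, a call lost without replicate 1 of 0 h (1.62, adjusted p 0.0522), and the cofactor Pbx3 by 0.88 ± 0.14. Other MLL-fusion targets fell: Myb, a progenitor transcription factor, went from 721 and 698 to 297 and 242 CPM (-1.40 ± 0.21), and Bcl2, the survival gene, from 88.1 and 84.5 to 32.7 and 32.4 CPM (-1.41 ± 0.15). Flt3, a growth factor receptor, held 197 counts at 0 h and 1 count at 72 h, 211-fold lower (95% exact interval 37.4 to 8366, counting error only). In all, 11 of 23 MLL-fusion targets were called higher and 6 lower, with a median of 0.67 by TMM and 1.30 by TPM.

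More progenitor receptors and factors were called lower than higher by TMM. Kit, the stem cell factor receptor, was at 202 and 199 CPM at 0 h and 0.376 and 0 CPM at 72 h. That is 3065 counts in the 0 h libraries and 3 in the 72 h libraries, 1093-fold lower (95% exact interval 374 to 5303, counting error only). Cd34, a surface marker of progenitors, fell from 454 and 498 to 125 and 134 CPM (-1.88 ± 0.12, adjusted p 1.08e-05), and so did the bHLH factor Lyl1 (-1.26 ± 0.13) and the ETS factor Erg (-1.33 ± 0.20). Tal1, the partner of Lmo2, went from 79.2 and 66.7 to 204 and 149 CPM (1.27 ± 0.25), while Lmo2 was at 155 and 188 CPM at 0 h and 235 and 220 CPM at 72 h and was not called (adjusted p 0.362), but it was called higher by TPM (adjusted p 0.0238) and with only the 4 compared libraries in the model (adjusted p 0.0256). Of 21 stem and progenitor genes 11 fell and 3 rose, with a median of -0.91 by TMM and -0.16 by TPM. By TPM, 9 were called lower and 7 higher.

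Myc, the transcription factor that drives growth, was at 447 and 497 CPM at 0 h and 5.63 and 1.67 CPM at 72 h, a change of -7.02 ± 0.80 (adjusted p 0.000161). It was already at 27.9 and 11.3 CPM at 8 h. Among myeloid fate factors, Cebpe, which drives granule maturation, went from 212 and 176 to 2.38 and 5.38 CPM (-5.63 ± 0.75). Cebpa, the master factor of the granulocyte-monocyte step, fell by 1.98 ± 0.13, and Gfi1, a repressor needed for granulocyte fate, fell as well (-1.83 ± 0.15). Spi1, which encodes PU.1, was at 224 and 217 CPM at 0 h and 296 and 345 CPM at 72 h, a change of 0.54 ± 0.19 (adjusted p 0.0369), and Klf6, a zinc finger factor, was at 46.2 and 84 CPM at 0 h and 123 and 141 CPM at 72 h (1.02 ± 0.32). The call of Spi1 was lost without replicate 1 of 0 h (0.60, adjusted p 0.0922), without replicate 2 of 0 h (0.55, adjusted p 0.113), without replicate 1 of 72 h (0.65, adjusted p 0.0538) and without replicate 2 of 72 h (0.43, adjusted p 0.169), and that of Klf6 without replicate 1 of 0 h (0.69, adjusted p 0.14), without replicate 1 of 72 h (1.11, adjusted p 0.0561) and without replicate 2 of 72 h (0.92, adjusted p 0.0992). Over 21 fate factors 10 fell and 6 rose, and the median of -0.60 by TMM turned to 0.10 by TPM.

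**Figure D3:**
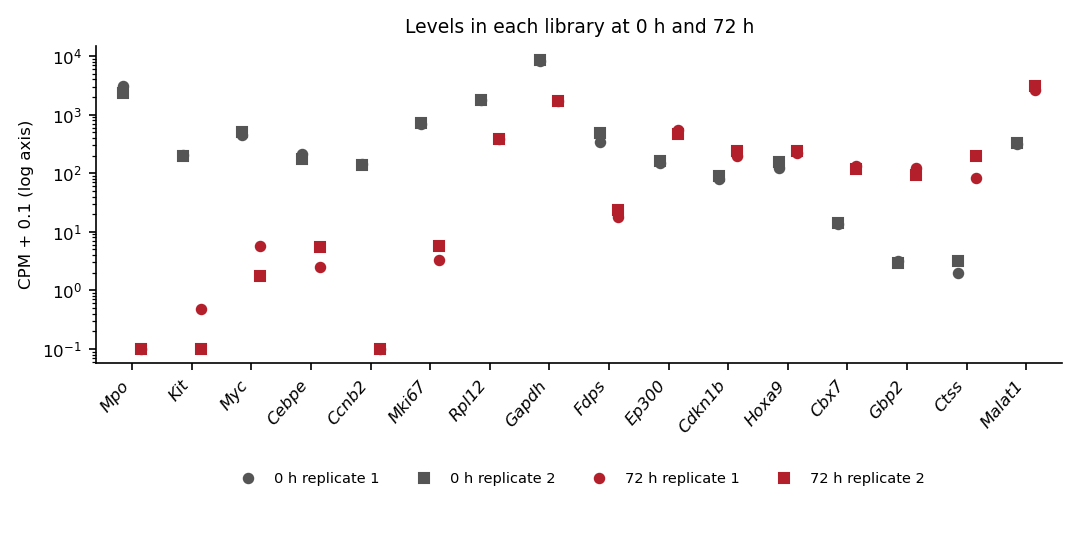
CPM + 0.1 on a log axis for 16 genes in each library, 0 h in gray and 72 h in red, circles for replicate 1 and squares for replicate 2. Mpo and Ccnb2 stood at 0 counts at 72 h, and in each gene shown both 72 h libraries lie beyond both 0 h libraries.

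Most primary granule genes fell, and some were nearly absent at 72 h. Mpo, the myeloperoxidase of the primary granules, was at 3120 and 2308 CPM at 0 h and at 0 counts in both 72 h libraries, at least 14900-fold lower against a floor of 3 counts over the group. Ctsg, a serine protease of the same granules, was at 3083 and 3618 CPM at 0 h and 1.88 and 2.75 CPM at 72 h (-10.48 ± 0.52, adjusted p 4.95e-06), and Ms4a3, a marker of the granulocyte-monocyte progenitor, at 368 and 268 CPM at 0 h and 0.25 and 0.239 CPM at 72 h. In none of them did the groups come within 100-fold of each other. All 14 primary granule and early neutrophil genes tested had a lower value at 72 h and 13 were called, with medians of -5.72 by TMM and -5.00 by TPM. Together they held 1.95% and 1.79% of the TPM at 0 h and 0.426% and 0.305% at 72 h.

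Genes of later neutrophil stages were lower as well. Of 26 neutrophil maturation genes 20 had enough reads to be tested. Of these, 17 were called lower and 0 higher. The median was -6.28 by TMM (-5.61 with 3 genes at 0 counts set to their bound) and -4.03 by TPM. A scarce gene could be tested through its reads at 0 h alone, so these numbers are in part set by that minimum. Ngp, a secondary granule protein, was at 1157 and 258 CPM at 0 h and 0.376 and 0 CPM at 72 h, 11218 counts against 3, and Lcn2, lipocalin 2, at 282 and 222 CPM at 0 h and 4.01 and 7.42 CPM at 72 h (-5.46 ± 0.30). Pglyrp1, a granule protein that binds bacterial walls, was at 532 and 368 CPM at 0 h and 14.5 and 15.6 CPM at 72 h, and Cxcr2, the receptor that recruits neutrophils, at 119 and 124 CPM at 0 h and 3.76 and 2.63 CPM at 72 h. Padi4, the enzyme that citrullinates histones, fell by less, at 322 and 280 CPM at 0 h and 68.4 and 79.6 CPM at 72 h (-2.02 ± 0.12). Cyba, a subunit of the phagocyte oxidase, was the most abundant of the list. It was at 429 and 400 CPM at 0 h and 335 and 353 CPM at 72 h and was not called by TMM (adjusted p 0.0625). By TPM it was called higher (0.40), though under the median of 0.62 of all genes.

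Few monocyte and macrophage genes rose. Of 34 such genes 19 had enough reads to be tested, some possibly through 0 h alone. Of these, 7 fell and 1 rose, with medians of -1.46 by TMM and -0.53 by TPM. Ly6c2, a surface protein of inflammatory monocytes, was at 3537 and 2500 CPM at 0 h and 14.8 and 17.5 CPM at 72 h (-7.55 ± 0.25, adjusted p 2.16e-06), and F13a1, a transglutaminase of monocytes, went from 2053 counts to 1, 2196-fold lower (394 to 86788). The 1 gene that rose was Ctss, cathepsin S, a lysosomal protease of antigen-presenting cells, at 1.85 and 3.06 CPM at 0 h and 82.6 and 199 CPM at 72 h (5.84 ± 0.69). Itgam, the CD11b integrin used as a marker of myeloid maturation, was at 834 and 731 CPM at 0 h and 598 and 631 CPM at 72 h, a change of -0.35 ± 0.11 (adjusted p 0.0267). The sign of Itgam turned with the scaling, to 0.02 by library size alone and 0.37 by TPM. Both values are under the medians of all genes in these scalings (0.35 and 0.62). Its call was lost without replicate 1 of 0 h (-0.21, adjusted p 0.228), without replicate 1 of 72 h (-0.31, adjusted p 0.121) and without replicate 2 of 72 h (-0.39, adjusted p 0.0647). At 8 h it had been lower still, at 235 and 205 CPM.

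Nearly all MYC target genes fell. Of 40 MYC target and nucleolar genes 38 were called lower and 0 higher, with medians of -1.62 by TMM and -0.85 by TPM. Srm, which makes the polyamine spermidine, was at 135 and 115 CPM at 0 h and 16.4 and 14.2 CPM at 72 h (-3.03 ± 0.19), and Wdr12, a ribosome assembly factor, at 117 and 128 CPM at 0 h and 17.5 and 15.6 CPM at 72 h (-2.89 ± 0.14). Cdk4, the promoter of which is printed above with 4 E-boxes, went from 391 and 388 to 94.3 and 99.5 CPM (-2.01 ± 0.09, adjusted p 3.73e-06), and Ran, the GTPase of nuclear transport, from 585 and 598 to 154 and 136 CPM. Each replicate pair lay close together and far from the other.

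Ribosomal protein genes fell together. Of 75 tested, 72 were called lower and 0 higher by TMM, and 59 lower by TPM. The median was -1.21 by TMM, -0.52 by TPM and -0.66 with length removed; these are short messages, with a median effective length of 424 nucleotides. Together they held 26.6% and 27.8% of the TPM at 0 h and 18.2% and 19.3% at 72 h. Rpl12 fell the most, at 1772 and 1812 CPM at 0 h and 384 and 384 CPM at 72 h (-2.22 ± 0.09, adjusted p 2.16e-06). Translation factors went with them (34 of 45 lower, 4 higher; medians -0.92 and -0.21 by TMM and TPM), with Eif5a at 1199 and 1101 CPM at 0 h and 319 and 308 CPM at 72 h (-1.87 ± 0.09). Eif4g3, a scaffold of the cap-binding complex, was one of the 4 that rose (1.10 ± 0.10).

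Mitochondrial ribosomal proteins and tRNA synthetases had negative medians by TMM, library size alone (-0.21 and -0.34) and with length removed (-0.22 and -0.73), but not by TPM. Set against the median of all genes by TPM, both lists were lower (-0.51 and -0.61). Of 76 mitochondrial ribosomal proteins 47 fell and 0 rose by TMM, with a median of -0.58, while by TPM 14 fell and 17 rose, with a median of 0.10. For 20 tRNA synthetases, 16 lower by TMM, the medians were -0.70 and 0.01. Vars, the valyl-tRNA synthetase, fell by both scalings, from 444 and 514 to 104 and 86.7 CPM (-2.33 ± 0.17 by TMM, -1.59 by TPM).

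Nucleotide and one-carbon synthesis fell by either scaling. Of 26 nucleotide synthesis genes 24 were called lower and 0 higher, with medians of -1.43 and -0.72 by TMM and TPM. Rrm2, the small subunit of ribonucleotide reductase, was at 95.3 and 85.7 CPM at 0 h and 1.38 and 0.837 CPM at 72 h (-6.34 ± 0.33), and Tk1, the thymidine kinase of S phase, at 64.7 and 57.8 CPM at 0 h and 0.626 and 0.359 CPM at 72 h (-6.92 ± 0.48). Of 24 serine, one-carbon and ATF4 genes 16 fell and 2 rose, with medians of -1.31 and -0.56. The 72 h libraries stood apart, with list medians of -0.89 and -1.63 on log2(CPM + 1) relative to 0 h. At 48 h these were -2.225 and -1.912, and 0 genes of the list were called between 48 h and 72 h. Mthfd1l, which makes formate in mitochondria, was at 240 and 247 CPM at 0 h and 10.3 and 8.49 CPM at 72 h (-4.70 ± 0.24). Shmt1, which transfers one-carbon units from serine in the cytosol, fell by 4.89 ± 0.30 from 89.4 and 71.4 CPM. One of the 2 that rose was Atf5, a stress-responsive bZIP factor, at 46.7 and 62.1 CPM at 0 h and 289 and 243 CPM at 72 h (2.29 ± 0.20).

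Nearly all glycolysis genes fell, abundant messages among them. Gapdh, a glycolytic dehydrogenase, was at 8328 and 8596 CPM at 0 h and 1695 and 1705 CPM at 72 h (-2.32 ± 0.09, adjusted p 2.16e-06), and Pgk1, which makes ATP in the same pathway, at 2807 and 3106 CPM at 0 h and 263 and 287 CPM at 72 h (-3.43 ± 0.14). Slc2a3, a glucose transporter, was at 153 and 84.8 CPM at 0 h and 0.751 and 0.957 CPM at 72 h. Of 22 glycolysis genes tested 21 were called lower and 0 higher, with medians of -1.98 by TMM and -1.27 by TPM. The list stood near this level at 8 h already. Against 8 h, 7 genes were called higher at 72 h and 4 lower, with a median of 0.14. Of hypoxia-responsive genes 13 of 19 fell (medians -1.17 by TMM and -0.46 by TPM), such as Egln3, a prolyl hydroxylase that senses oxygen, from 1040 and 914 to 78.4 and 82.1 CPM, and Bnip3, a mitophagy receptor, from 1125 and 1049 to 156 and 165 CPM. The 1 that rose was Arnt, the partner of the HIF alpha subunits, at 66.2 and 73.3 CPM at 0 h and 152 and 135 CPM at 72 h (1.04 ± 0.11).

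The sign of the respiratory chain median depended on the scaling. Set against the median of all genes, it was lower both by TMM and by TPM (-0.58 by TPM). Of 73 respiratory chain and ATP synthase genes 53 were called lower and 0 higher by TMM, with a median of -0.60, but the median was 0.04 by TPM and 0.03 with length removed. Atp5b, the catalytic subunit of ATP synthase, was at 1227 and 1262 CPM at 0 h and 639 and 593 CPM at 72 h (-1.01 ± 0.09 by TMM, -0.31 by TPM). In the TCA cycle list 20 of 27 fell and 1 rose, with medians of -0.54 by TMM and 0.15 by TPM. Me2, the mitochondrial malic enzyme, fell by both, from 317 and 330 to 56 and 48.9 CPM (-2.62 ± 0.13). Of pentose phosphate and NRF2 genes 16 of 28 fell and 3 rose, with medians of -0.66 and 0.05. Within that list Tkt, transketolase, was at 1608 and 1537 CPM at 0 h and 404 and 425 CPM at 72 h (-1.92 ± 0.15), and Hmox1, heme oxygenase, was at 98.2 and 123 CPM at 0 h and 437 and 341 CPM at 72 h (1.82 ± 0.28).

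Nearly all sterol synthesis genes fell. Of 23 cholesterol synthesis genes 22 were called lower and 0 higher, with medians of -1.95 by TMM and -1.21 by TPM. Fdps, which makes farnesyl pyrophosphate, was at 340 and 491 CPM at 0 h and 17.8 and 23.4 CPM at 72 h (-4.33 ± 0.39). The wider fatty acid list held 17 lower and 3 higher of 29, and its median of -0.53 by TMM turned to 0.18 by TPM. Scd2, a desaturase of fatty acids, was its most abundant member, at 1436 and 1742 CPM at 0 h and 215 and 207 CPM at 72 h (-2.91 ± 0.17).

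Messages of the cell division machinery were among the lowest at 72 h relative to 0 h. Mki67, the antigen used to mark dividing cells, was at 703 and 726 CPM at 0 h and 3.13 and 5.62 CPM at 72 h (-7.34 ± 0.69, adjusted p 5.74e-05). Ccnb2, cyclin B2, was at 143 and 140 CPM at 0 h and at 0 counts in both 72 h libraries, at least 772-fold lower, and Ube2c was at 160 and 189 CPM at 0 h and 0.125 and 0.718 CPM at 72 h. Of 45 mitosis and spindle genes 44 were called lower, with medians of -5.14 by TMM and -3.67 by TPM. The 1 gene called higher was Pttg1, which encodes securin, at 12.6 and 12.4 CPM at 0 h and 31.6 and 32.4 CPM at 72 h (1.35 ± 0.23). Aurkb, the kinase of the chromosomal passenger complex, was at 152 and 138 CPM at 0 h and 0.376 and 1.08 CPM at 72 h (-7.60 ± 0.52), and Top2a, the topoisomerase of chromosome condensation, at 702 and 614 CPM at 0 h and 26.4 and 24.6 CPM at 72 h (-4.69 ± 0.34).

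Replication genes fell by less. Of 45 DNA replication genes 44 were called lower and 0 higher, with medians of -2.54 by TMM and -1.81 by TPM. Mcm3, a subunit of the replicative helicase, was at 434 and 400 CPM at 0 h and 35.2 and 34.7 CPM at 72 h (-3.58 ± 0.18), Cdc45, its activator, at 83.5 and 72.8 CPM at 0 h and 3.38 and 3.71 CPM at 72 h (-4.46 ± 0.18), and Pcna, the sliding clamp, at 405 and 342 CPM at 0 h and 108 and 106 CPM at 72 h (-1.80 ± 0.12). Uhrf1, which brings Dnmt1 to replicated DNA, fell from 222 and 212 to 6.89 and 5.62 CPM (-5.11 ± 0.41), and Dnmt1, the maintenance methyltransferase, from 509 and 426 to 168 and 130 CPM (-1.65 ± 0.16). Brca1, a homologous recombination gene, was low as well, at 85.2 and 63.6 CPM at 0 h and 2.13 and 1.32 CPM at 72 h (-5.43 ± 0.38). The whole DNA repair list had 27 of 46 lower and 6 higher, and its median of -0.67 by TMM turned to 0.04 by TPM.

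Among brakes on the cycle, Cdkn1b, which encodes the CDK inhibitor p27, was at 78.8 and 90.5 CPM at 0 h and 197 and 243 CPM at 72 h (1.38 ± 0.17, adjusted p 0.000222). Cdkn1a, which encodes p21, was at 293 and 333 CPM at 0 h and 403 and 367 CPM at 72 h and was not called by TMM (0.30 ± 0.18, adjusted p 0.189), and it was called higher by TPM (1.01, adjusted p 0.00116). Over the G1 list 4 of 22 rose and 8 fell, and the median of -0.10 by TMM turned to 0.27 by library size and 0.46 by TPM. Of p53 targets 11 of 26 rose and 6 fell, with medians of 0.30 by TMM and 0.99 by TPM. Rrm2b, the ribonucleotide reductase subunit of non-dividing cells, rose from 20.9 and 21.2 to 95.8 and 67.7 CPM (1.96 ± 0.22), while Perp, a p53 effector, fell from 474 and 450 to 55.6 and 51.3 CPM (-3.11 ± 0.12).

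Of 32 genes of the BCL2 family and death list 9 rose and 9 fell, shares close to the 25.9% and 29.4% of all genes, with medians of 0.11 by TMM and 0.81 by TPM; the TMM median turned to -0.01 without replicate 2 of 72 h. Bcl2l11, which encodes the killer BIM, was at 57.6 and 70.8 CPM at 0 h and 184 and 162 CPM at 72 h (1.43 ± 0.16). The survival genes Mcl1 (324 and 297 CPM at 0 h and 607 and 643 CPM at 72 h, 1.01 ± 0.10) and Xiap (99.3 and 80.2 CPM at 0 h and 217 and 205 CPM at 72 h, 1.23 ± 0.13) were higher as well. Bak1, a pore-forming member, was at 216 and 216 CPM at 0 h and 108 and 124 CPM at 72 h (-0.90 ± 0.10 by TMM, -0.19 by TPM, where it was not called), and Mlkl, the effector of necroptosis, fell from 57 and 52.4 to 16.4 and 15.2 CPM (-1.79 ± 0.15).

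More protein folding and export genes fell than rose by TMM. Of 28 ER chaperone genes 15 fell and 2 rose, and of 40 ER to Golgi genes 24 fell and 3 rose; their medians of -0.65 and -0.57 by TMM turned to 0.06 and 0.13 by TPM. P4hb, protein disulfide isomerase, was at 3311 and 3648 CPM at 0 h and 653 and 843 CPM at 72 h (-2.22 ± 0.17), and Sec61b, a subunit of the translocon, at 270 and 313 CPM at 0 h and 56.5 and 70.3 CPM at 72 h (-2.20 ± 0.13). Cytosolic chaperones (20 of 30 lower, 3 higher) and proteasome subunits (26 of 38 lower, 0 higher) had medians of -0.68 and -0.54 by TMM, which turned to 0.03 and 0.16 by TPM. Hsp90ab1, the HSP90 of growing cells, fell by either scaling, from 3672 and 4132 to 1186 and 1052 CPM (-1.80 ± 0.12). Mitochondrial import genes (16 of 32 lower, 3 higher) likewise had a median of -0.62 by TMM and 0.09 by TPM, with Pink1, the kinase that tags damaged mitochondria, the other way at 84.3 and 102 CPM at 0 h and 230 and 223 CPM at 72 h (1.28 ± 0.14).

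Of 46 lysosome and V-ATPase genes 18 were called higher and 10 lower, with medians of 0.22 by TMM and 0.91 by TPM. Lipa, the acid lipase, was at 31.9 and 27.6 CPM at 0 h and 104 and 113 CPM at 72 h (1.87 ± 0.12), and Tfe3, a regulator of lysosome genes, at 26.6 and 27.4 CPM at 0 h and 87.9 and 95 CPM at 72 h (1.76 ± 0.16). Gla, a galactosidase, went down, at 118 and 125 CPM at 0 h and 27.2 and 30.1 CPM at 72 h (-2.08 ± 0.15), so the list did not move as one. Of 38 autophagy genes 20 rose and 6 fell, with medians of 0.48 and 1.17. Map1lc3b, the LC3 protein of autophagosomes, was at 211 and 236 CPM at 0 h and 382 and 432 CPM at 72 h (0.86 ± 0.10), and Sqstm1, the p62 cargo adaptor, at 354 and 430 CPM at 0 h and 1029 and 755 CPM at 72 h (1.19 ± 0.27).

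Iron genes moved in both directions. Tfrc, the transferrin receptor, went from 233 and 177 to 30.4 and 36.2 CPM (-2.62 ± 0.29, adjusted p 0.000148). Ftl1, ferritin light chain, was at 2767 and 3441 CPM at 0 h and 4213 and 6087 CPM at 72 h (0.73 ± 0.21), a call lost without replicate 1 of 0 h (0.62, adjusted p 0.0943) and without replicate 2 of 72 h (0.44, adjusted p 0.125), and no library of one time reached the level of the other. The iron and heme list as a whole took 0.635% and 0.75% of the TPM at 0 h and 1.75% and 2.15% at 72 h, with 9 of 24 genes called higher and 7 lower (medians 0.39 by TMM and 0.87 by TPM). Of 192 solute carriers 53 rose and 52 fell, shares close to the 25.9% and 29.4% of all genes (medians 0.03 by TMM and 0.60 by TPM). Slc22a18 had the largest rise, from 0.741 and 0.696 to 13.3 and 10.8 CPM, and Slc16a1, the lactate carrier MCT1, fell from 113 and 117 to 5.38 and 4.19 CPM (-4.59 ± 0.22).

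Surface and adhesion genes were mostly lower. Thbs1, the matrix protein thrombospondin 1, was at 5982 and 5749 CPM at 0 h and 37.9 and 63 CPM at 72 h (-6.86 ± 0.84, adjusted p 0.000231). Of 30 integrin and adhesion genes 19 fell and 2 rose (medians -0.78 by TMM and -0.09 by TPM). Actin cytoskeleton genes had 16 of 42 lower and 8 higher, and their median of -0.28 by TMM turned to 0.09 by library size and 0.43 by TPM. Capg, a capping protein of actin filaments, rose to 253 and 242 from 77 and 108 CPM (1.42 ± 0.18). Of 32 chemokine and chemokine receptor genes 15 had enough reads to be tested. Of these, 0 were called higher and 10 lower (medians -2.99 by TMM and -1.47 by TPM). A scarce gene could be tested through its reads at 0 h alone, so these numbers are in part set by that minimum. Cxcr4, the receptor that holds progenitors in the marrow, was at 345 and 310 CPM at 0 h and 41.7 and 55 CPM at 72 h (-2.76 ± 0.50). Of phagocyte receptor and oxidase genes 14 of 26 fell and 3 rose (medians -0.99 by TMM and -0.36 by TPM). Trem3, an activating receptor, stood at 0 counts in both 72 h libraries, at least 221-fold lower, while Pirb, an inhibitory receptor, was at 13.2 and 10.6 CPM at 0 h and 110 and 139 CPM at 72 h (3.38 ± 0.20). Pirb has near-identical paralogs that may share reads with it, so its level is uncertain.

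Interferon genes were the immune list with the most rises. Of 41 tested 17 were called higher and 5 lower, with medians of 0.82 by TMM, 1.26 by TPM and 0.95 with length removed. Gbp2, a guanylate-binding protein, was at 3.09 and 2.79 CPM at 0 h and 121 and 93.3 CPM at 72 h (5.18 ± 0.45), and Samhd1, which degrades nucleotides, at 131 and 107 CPM at 0 h and 316 and 386 CPM at 72 h (1.56 ± 0.15). Both 72 h libraries were above both 0 h libraries in these genes. Others were uneven between the libraries. Ifit1, chosen after its values were seen and printed above with 2 interferon elements, had 0 counts at 0 h and was at 0.501 and 7.06 CPM at 72 h, and its call was lost without replicate 1 of 0 h (7.96, adjusted p 0.0927), without replicate 2 of 0 h (7.97, adjusted p 0.0827) and without replicate 2 of 72 h (5.06, adjusted p 0.165) and by TPM (adjusted p 0.0986). The list median in the 72 h libraries was 0.37 and 0.97 above its 0 h mean on log2(CPM + 1), and 1.04 and 1.09 at 8 h. Psmb8, an immunoproteasome subunit, was lower by TMM, at 296 and 320 CPM at 0 h and 152 and 181 CPM at 72 h (-0.89 ± 0.15 by TMM, -0.19 by TPM, where it was not called). The receptor chains also parted: Ifngr2 rose from 46.9 and 46 to 132 and 143 CPM and Ifngr1 fell from 505 and 443 to 122 and 145 CPM.

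Antigen presentation genes had 4 of 21 higher and 6 lower, not far from the 25.9% and 29.4% of all genes. Their median of -0.17 by TMM turned to 0.20 by library size and 0.54 by TPM, and also turned sign without replicate 1 of 72 h (0.12). H2-D1, a class I heavy chain with close paralogs, was at 809 and 888 CPM at 0 h and 1181 and 1781 CPM at 72 h (0.80 ± 0.24), a call lost without replicate 1 of 0 h (0.78, adjusted p 0.0886), without replicate 2 of 0 h (0.91, adjusted p 0.055) and without replicate 2 of 72 h (0.48, adjusted p 0.141). Of NF-kB and inflammatory genes 10 of 32 rose and 7 fell, likewise not far from the shares of all genes (medians 0.26 and 0.81). The subunit Rel was at 8.77 and 8.36 CPM at 0 h and 27.5 and 24.9 CPM at 72 h (1.61 ± 0.23). Immediate-early and MAPK feedback genes had 15 of 32 lower and 4 higher (medians -1.08 and -0.24). Fosl1, an AP-1 subunit, fell from 22.7 and 32.2 to 0.501 and 0.598 CPM, and Zfp36, which destabilizes inflammatory messages, rose from 42.3 and 28 to 115 and 143 CPM (1.87 ± 0.24).

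The PI3K, TGF-beta and STAT lists held more rises than falls by TMM. Of PI3K, mTOR and FOXO genes 14 of 38 rose and 5 fell, with medians of 0.34 by TMM, 0.98 by TPM and 0.20 with length removed. Tsc1 and Tsc2, which restrain mTOR complex 1, rose by 1.03 ± 0.14 and 0.72 ± 0.10, and Eif4ebp1, the translation repressor that mTOR inactivates, fell from 187 and 184 to 71.4 and 72.7 CPM (-1.37 ± 0.22). Of TGF-beta, Notch and Wnt genes 14 of 28 rose and 6 fell (medians 0.58, 1.15 and 0.30 in the same order), with the receptor Notch2 at 103 and 126 CPM at 0 h and 525 and 481 CPM at 72 h (2.13 ± 0.14). Of STAT and SOCS genes 11 of 25 rose and 5 fell (medians 0.38, 1.08 and 0.19). Here Socs2, a feedback inhibitor of cytokine receptors, was at 33.1 and 25.2 CPM at 0 h and 106 and 105 CPM at 72 h (1.86 ± 0.15), and Socs3, a second such inhibitor, at 76.6 and 57.2 CPM at 0 h and 13.3 and 14 CPM at 72 h (-2.29 ± 0.39). Cytokine receptors themselves had 8 of 22 lower and 5 higher, not far from the 29.4% and 25.9% of all genes (medians -0.85 and -0.14). By TPM, 9 were called higher and 5 lower, beside 54.9% and 14.7% of all genes.

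RNA decay and small RNA genes had 15 of 36 higher and 3 lower (medians 0.26 by TMM and 0.94 by TPM); with length removed, 10 were higher and 3 lower (median 0.09). The Argonaute gene Ago1 was at 34.1 and 32.5 CPM at 0 h and 82.6 and 79.1 CPM at 72 h (1.28 ± 0.15). Nuclear pore and transport genes had 17 of 40 lower and 5 higher, and their median of -0.28 by TMM turned to 0.08 by library size and 0.41 by TPM. Kpna2, an importin that is high in dividing cells, fell from 226 and 239 to 31.2 and 28.1 CPM (-2.97 ± 0.25). DNA methylation enzymes parted, 4 higher and 4 lower of 11, and their median of -0.26 by TMM turned to 0.11 by library size and 0.40 by TPM. Clock genes had 2 higher and 6 lower of 14 (medians -0.76 and -0.03): Clock itself was at 11.2 and 7.52 CPM at 0 h and 69.6 and 40.8 CPM at 72 h (2.55 ± 0.43) and Nfil3, which binds D-box sites, at 97.5 and 92.6 CPM at 0 h and 20.9 and 22.6 CPM at 72 h (-2.13 ± 0.29). Nuclear noncoding RNAs and snoRNA hosts also parted, 5 higher and 5 lower of 14: beside Malat1 and Neat1, the host Snhg1 fell from 25.5 and 23.7 to 5.76 and 6.1 CPM (-2.05 ± 0.25).

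**Figure D4:**
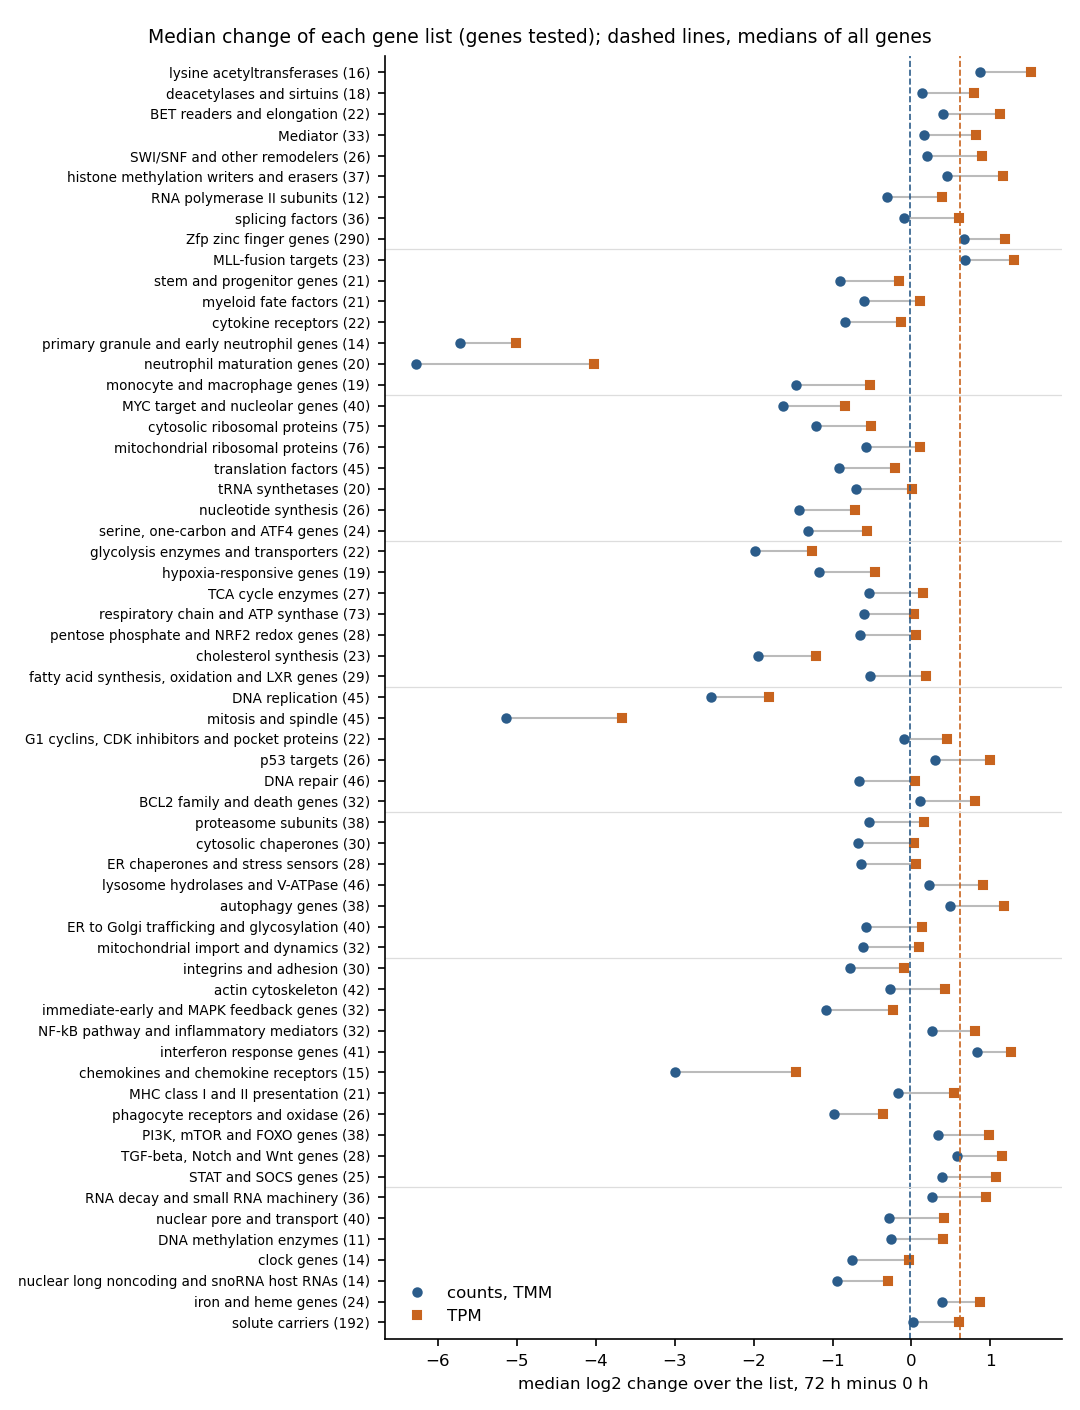
Median log2 change at 72 h minus 0 h of each gene list with its number of genes tested, for TMM-scaled counts (blue circles) and log2(TPM + 1) (orange squares), with dashed lines at the medians of all genes, -0.02 and 0.62. Granule, maturation and mitosis lists lie furthest to the left. Acetyltransferases, Zfp genes, MLL-fusion targets and interferon genes have both points right of both lines.

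Under TPM the median of 20 of 65 lists turned its sign, and under library size alone that of 7. Set against the median of all genes under the same scaling, 1 list turned under TPM, the solute carriers, and 0 turned under library size alone.

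Most markers of other blood cells that passed the filter were lower at 72 h. The filter keeps a gene with enough reads in the libraries of a single time, so a scarce marker could pass through 0 h alone. Pf4 held 135 counts at 0 h and 0 at 72 h, and Cd28 held 190 and 1. The numbers called lower below are in part set by the filter and are no test of loss. Of 10 mast cell, basophil and eosinophil markers tested 8 were called lower and 0 higher. The summed TPM of that list was 549 and 738 at 0 h and 81.7 and 59.7 at 72 h, with Mcpt4, Mcpt1, Cma1, Tpsab1, Tpsb2 and Ccr3 at 0 counts in the 4 libraries. Cpa3, a mast cell protease, was at 243 and 139 CPM at 0 h and 2 and 1.32 CPM at 72 h (-6.84 ± 0.78). Erythroid markers summed to 642 and 650 TPM at 0 h and 25 and 23.4 at 72 h, with 5 of 6 lower, with 5 of 17 at 0 counts, Slc4a1 and Rhag among them. Megakaryocyte markers summed to 191 and 170 TPM at 0 h and 39 and 19.3 TPM at 72 h, with 4 of 6 lower, 1 higher, and 4 of 12 at 0, Gp1bb and Gp6 among them. T- and NK-cell markers summed to 27.6 and 24.2 TPM and then 14 and 11.5 TPM, with 4 of 5 lower and Cd3e, Cd4, Cd8b1, Cd2, Cd5, Ncr1 and Gzma at 0. B-cell markers summed to 0.92 and 1.18 TPM at 0 h and 2.97 and 2.4 TPM at 72 h, with none of 14 passing the filter and 7 at 0, Ms4a1 and Pax5 among them. Stromal and endothelial markers summed to 3.73 and 3.57 TPM and then 1.63 and 3.57 TPM, with Lum, Cdh5, Tek, Emcn and Eng at 0. The progenitor markers Kit and Cd34 were both present at 0 h. At 72 h Kit held 3 counts in all, while Cd34 was lower but was still measured in both libraries, as given above. The part of other cell types in the granule and receptor losses was not tested.

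Among genes of no list, the largest rises included L1cam, an adhesion molecule, at 0.371 and 0 CPM at 0 h and 19.7 and 9.33 CPM at 72 h, and Fcgrt, the neonatal Fc receptor, at 1.24 and 0.279 CPM at 0 h and 16.7 and 29.3 CPM at 72 h (4.86 ± 0.57). Txndc16 went from 2.59 and 2.09 to 31.4 and 32.2 CPM (3.75 ± 0.18, adjusted p 4.7e-06), with replicates close together. P2rx7, an ATP-gated channel, was at 0.371 and 0.696 CPM at 0 h and 5.89 and 15 CPM at 72 h. Among the largest falls, Myo18b, an unconventional myosin, Bpifc, Mgam, a maltase, and Cldn15, a claudin of tight junctions, stood at 0 counts in both 72 h libraries, at least 421-, 305-, 229- and 192-fold lower. E2f7, a repressor of E2F targets, was at 30.8 and 21.4 CPM at 0 h, 41.7 and 36.7 CPM at 8 h and 0 counts at 72 h, at least 144-fold lower. Tnfrsf9, the costimulatory receptor 4-1BB, went from 4481 counts to 3, 1598-fold lower (546 to 7751), and the endothelial lipase Lipg from 3345 counts to 2, 1789-fold lower (495 to 14780).

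The end state was also set against 8 h and 48 h in the same model; these comparisons share the 72 h libraries with the main one. Against 8 h, 1675 genes were called higher at 72 h (15.1%) and 1908 lower (17.2%). Without replicate 2 of 72 h the counts were 950 and 1135. Against 48 h, edgeR called 0 higher (0%) and 0 lower (0%), with 498 genes at an unadjusted p under 0.05 (4.48%) and a lowest adjusted p of 0.931, and limma on TPM likewise called 0, with 642 at an unadjusted p under 0.05 (5.77%). Without replicate 1 of 72 h, 1 gene was called lower against 48 h.

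Lists stood at different distances from the end state at 8 h. Mitosis genes were not yet low: their list median was 0.38 and 0.65 on log2(CPM + 1) relative to 0 h in the 8 h libraries, -0.95 and -2.01 at 24 h, -4.49 and -3.86 at 48 h and -4.58 and -4.57 at 72 h. Against 8 h, 44 of 45 were lower at 72 h. Mki67 was at 816 and 1096 CPM at 8 h, and its difference between 72 h and 8 h was -7.76 ± 0.70 (adjusted p 0.000132). Replication genes gave -0.21 and -0.37 at 8 h and -2.23 and -2.22 at 72 h, with 41 of 45 lower at 72 h than at 8 h, and ribosomal proteins -0.46 and -0.67 at 8 h and -1.27 and -1.13 at 72 h, with 59 of 75 lower. Glycolysis genes gave -2.03 and -1.86 at 8 h and -1.90 and -1.97 at 72 h.

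Other lists held more genes above than below their 8 h level. Among all genes 15.1% were called higher at 72 h than at 8 h and 17.2% lower. Among myeloid fate factors 7 of 21 were higher and 1 lower, and among cytokine receptors 10 of 22 were higher and 2 lower. Among phagocyte receptors 11 of 26 were higher and 1 lower. The median of that list relative to 0 h overlapped between the times, at -1.09 and -2.04 at 8 h and -1.60 and -0.76 at 72 h. Itgam differed by 1.48 ± 0.11 between 72 h and 8 h (adjusted p 8.48e-05). Cdkn1b was at 79.2 and 83.6 CPM at 8 h, and its difference between 72 h and 8 h was 1.44 ± 0.17 (adjusted p 0.000474). Lysosome genes had a median of -0.03 and 0.00 at 8 h and 0.24 and 0.16 at 72 h.

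**Figure D5:**
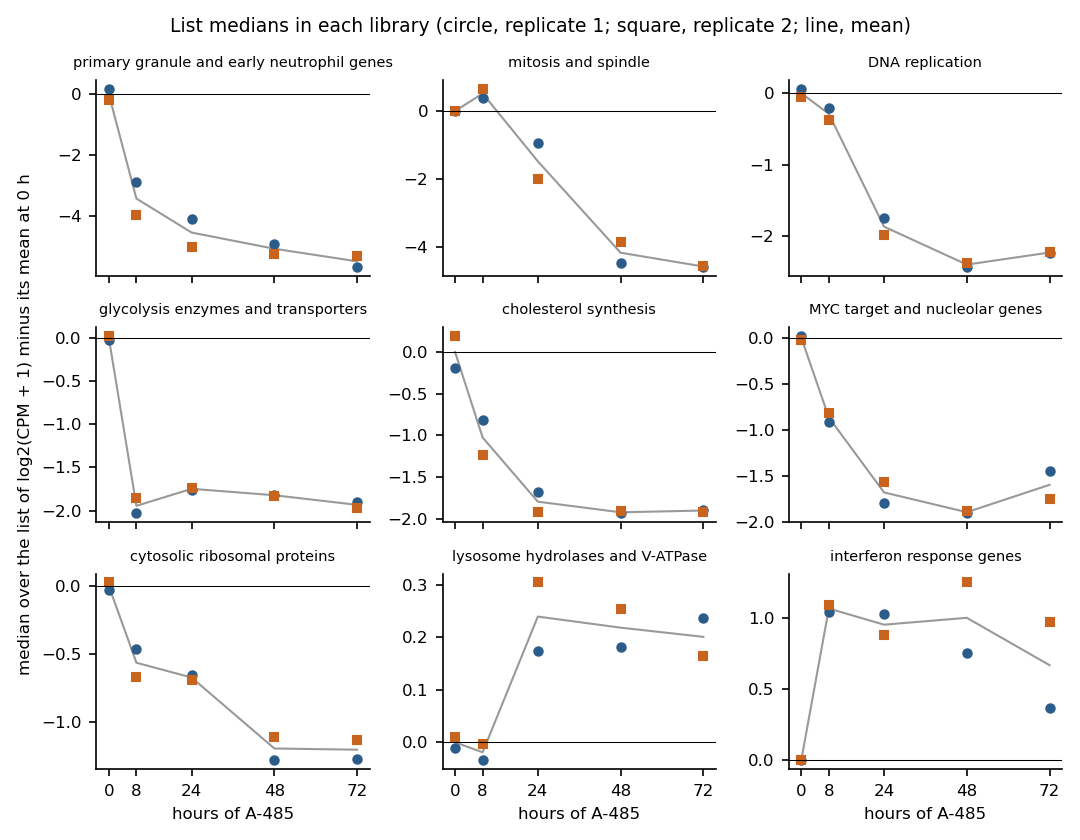
Median over each of 9 lists of log2(CPM + 1) minus its mean at 0 h, in each library against hours of A-485; circles are replicate 1, squares replicate 2 and lines the mean, and the vertical scales differ. Glycolysis is at -2.03 and -1.86 at 8 h and -1.90 and -1.97 at 72 h, and mitosis at 0.38 and 0.65 and then -4.58 and -4.57.

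The 3 single libraries took no part in the comparison and give a description without replicates. The median log2 ratio of mAML to LSC was -0.05 over all 11119 genes, 0.52 over the 244 genes called at least 4-fold higher at 72 h and -0.49 over the 974 called at least 4-fold lower. In mAML, 37.7% of those 244 genes were at least 2-fold above LSC and 3.69% at least 2-fold below, beside 12% and 7.73% of all genes. Of the 974, 19.9% were at least 2-fold above and 31.7% at least 2-fold below. Both libraries are labelled as tumor and neither as treated with A-485.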

How the data were processed

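RNA was measured in 13 murine libraries. Per the submitters' processing notes, STAR and RSEM were used with the mm9 build; versions, settings and strandedness were not stated there. The deposited tables hold expected counts, estimated by RSEM per gene, which need not be whole numbers, and per the file headers also TPM and effective length; these deposited TPM values are corrected for effective length and scaled to a fixed total in each library.

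Expected counts were rounded and fitted with edgeR 4.0.16 (quasi-likelihood, TMM, filterByExpr by time, R 4.3.3) on the 10 time-course libraries, with time as the factor. The single GMP, LSC and mAML libraries stayed out. Adjusted p-values (Benjamini-Hochberg, over 11119 genes) under 0.05 made a call. TPM values were tested with limma 3.58.1 on log2(TPM + 1). With 2 libraries per time, the test borrows the spread across all 10. Standard errors were taken from the change and the F statistic. Totals of 6467762 to 9763278 limit the precision at low counts; ratios against 1 to 3 counts carry a 95% exact interval, and groups at 0 a floor of 3 counts. Intervals and floors cover counting error only, since the reads carry no molecular identifiers. The models were tested on simulated data with a small set of genes changed, upward as often as downward. That setting differs from these data and cannot test the choice of scaling.

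Genes were grouped into 67 lists, 65 of them with at least 5 genes tested. Genes were named by a rule: 12 fixed genes, and from each list up to 4 called genes with the smallest adjusted p, the largest rise and the largest fall (at least 10 CPM, libraries of 0 h and 72 h not overlapping), and the most abundant; from genes of no list, the 12 largest rises and falls. Others are marked. Lists and genes were chosen with earlier results of these data known. A few listed genes were not measured here. Genes with close copies (H2-D1, Pirb) may share reads. Promoters were read from RefSeq tables (GRCm38.p6), a different build from the one used for counting, and matched by symbol; motifs were searched on both strands. Other scalings (library size, RLE), DESeq2 1.42.0, TPM + 0.1, no filter, 4 libraries, a replicate block, a length trend removed (lowess, span 0.3) and each library left out were tried. Figures and summaries used Python 3.11.15.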

Additional observations from a re-analysis of the deposited data

Results flagged for a closer look

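The change from 0 h differed between 8 h and 72 h in many genes, by edgeR's test of 72 h against 8 h. It was higher at 72 h in 1675 genes and lower in 1908.

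Among the 12 genes fixed for naming, 9 differed in this way. Ep300 differed by 0.49, Hoxa9 by 0.80, Itgam by 1.48, Cdkn1a by 0.79 and Cdkn1b by 1.44 on the log2 scale, all higher at 72 h than at 8 h. Cdkn1a was not called at 72 h against 0 h, and at 8 h it stood at 257 and 188 CPM, with 293 and 333 CPM at 0 h and 403 and 367 CPM at 72 h. Myc differed by -2.43 and Mki67 by -7.76, both lower at 72 h. Kit and Mpo also differed, with fitted values of -5.15 and -13.58; at 72 h Kit held 3 counts and Mpo 0, so these 2 fitted values depend on the prior count and are no measure of size. Kit was at 8.17 and 5.93 CPM at 8 h and Mpo at 351 and 27.1 CPM. With groups of 2 libraries, no library could be tested as standing apart from its group.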

How the results depend on the processing

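Both scaling and single libraries moved counts. Against 0 h, library size alone gave 4616 higher and 2228 lower, limma on log2(TPM + 1) 6104 and 1638, and limma on log2(TPM + 0.1) 6137 and 1615. Against 8 h, limma on log2(TPM + 1) gave 3217 higher and 1240 lower. These scalings place the median of all genes at different values. Left out in turn, the libraries gave 950 to 1237 higher and 1135 to 1525 lower against 8 h, both lowest without replicate 2 of 72 h, and 0 to 1 lower against 48 h; the cause was not tested. Against 0 h they gave 2230 to 2288 higher and 2487 to 2670 lower, with fewer libraries in the model.

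The direction of 3 named genes turned. Cyba went from -0.27 to 0.10 by library size, 0.40 by TPM + 1 and by TPM + 0.1, and 0.28 with length removed. The medians of all genes in these settings were 0.345, 0.617, 0.674 and 0.012, so only the last value of Cyba lay above its median. Itgam went from -0.35 to 0.018, 0.371 and 0.372 by library size, TPM + 1 and TPM + 0.1, each under the median of all genes. Wnt2, not called, ranged from -1.53 without replicate 1 of 72 h to 2.73 without replicate 2. The other 152 of 155 genes named with values kept their direction under all alternatives run. DESeq2, RLE size factors and no filter left all 155 on their side of the threshold.

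The replicate block gave 2822 higher and 3220 lower against 0 h and 1608 and 1846 against 8 h, and it changed the call of 1 named gene, Oasl2 (adjusted p 0.0532). Taken as labelled, the shared numbers gave no uniform pairing: over the 10 pairs of times, deviations of same-numbered libraries correlated at -0.442 to 0.66. Those of 8 h and 24 h correlated at 0.66, and those of 72 h at -0.437 with 8 h and -0.442 with 24 h. The block used the numbers as labelled; whether they are exchanged at 72 h was not tested. Depth limits the genes near 0 counts at 72 h, such as Mpo and Ccnb2, for which only lower bounds of the fold can be given.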
